A study of Homo sapiens with 12 samples.

Results

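Intron and exon usage was compared between AGI24512 and its solvent DMSO in the MTAP-null form of HCT116, a colon cancer line of human origin that is long established. All 6 libraries with the MTAP-null and treatment labels were taken, 3 with AGI24512 and 3 with DMSO, out of 12 libraries in the series. The other 6 libraries hold the same pair of treatments in the MTAP-WT form of the line, and are used only where an intron was listed in both forms. Per the labels, the DMSO controls of this comparison carry the MTAP-null genotype too. The labels call AGI24512 a MAT2A inhibitor, name Horizon Discovery as the source of the cells, and give no dose, duration, clone or separate cultures, so a p-value reflects only how far the libraries of a group spread, in part perhaps for technical reasons. RNA was poly-A enriched and sequenced as paired ends. The material consisted of the authors' table of 1549 intron features in 1287 genes or gene groups, made with DEXSeq, and their 5 rMATS tables with 459 splicing events in 357 genes.

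MTAP recycles methylthioadenosine, a by-product of polyamine synthesis, back to methionine. MAT2A joins methionine and ATP to S-adenosylmethionine, the methyl donor of most cellular methylation. Cells without MTAP accumulate methylthioadenosine, which inhibits PRMT5, a methyltransferase that places symmetric dimethylarginine on Sm proteins and other RNA-binding proteins of the splicing machinery. Detained introns are introns that remain in otherwise spliced, polyadenylated transcripts held in the nucleus, and are known as sensitive readouts of splicing capacity.

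The introns below are excised between a 5′ splice site, which pairs with U1 RNA, and a 3′ splice site preceded by a run of pyrimidines. The sequences show the 5′ splice sites of 9 described introns, chosen because they cover large rises, introns whose reads fell, and good as well as poor matches to the U1 pairing consensus CAGGTAAGT. Each has 10 exon bases and 20 intron bases, 5′ to 3′ on the transcribed strand, with the first 2 intron bases in capitals. They were read from GENCODE 29 transcripts (GRCh38) that keep the intron.
PFDN6, chr6:33290441-33290470, plus strand: cagctgaaatGTgagtttttattccaccac
MRPL4, chr19:10258513-10258542, plus strand: tcgtggacttGTgagggcacagggcagagc
EIF4E, chr4:98887059-98887088, minus strand: gctagagacaGTaaggttttaaaagtataa
PTK7, chr6:43142489-43142518, plus strand: acatccaacgGTcggtgtgtgtgtgtgtgt
ARHGEF16, chr1:3478017-3478046, plus strand: agaagaagagGTggccttagggcaggaggg
STX4, chr16:31034316-31034345, plus strand: cccgaggagaGTgagtgaaaccccggctgc
PSMB4, chr1:151400836-151400865, plus strand: cttggctcagGTaagtagtaagtctagagg
RPLP0, chr12:120200710-120200739, minus strand: taagatcatcGTaagtgcagggtgggtcgc
RPL10, chrX:154399387-154399416, plus strand: ggtgtccctgGTaagtagtggaagagcccc

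The matching 3′ splice sites follow for 4 of them, with 20 intron bases, the last 2 in capitals, and 10 exon bases.
PFDN6, chr6:33290696-33290725, plus strand: tctcccttgtctctccttAGtaagcgatac
MRPL4, chr19:10258589-10258618, plus strand: ctccctggcctctcttacAGaacacacgag
PSMB4, chr1:151401219-151401248, plus strand: ttttcccccaatctccctAGcctctgctgc
RPLP0, chr12:120200141-120200170, minus strand: tttactccatttttgagaAGgtctgaggtc

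Across the 9 consensus positions, which take 3 exon and 6 intron bases, PSMB4 matched at 9, RPL10 at 8, PFDN6 and RPLP0 at 6, MRPL4, EIF4E, PTK7 and STX4 at 5, and ARHGEF16 at 4. The windows could be read for 190 listed introns that match a GENCODE intron of any transcript type. Of these, 98.4% began with GT and ended with AG, and the mean match was 5.79 of 9 bases. The comparison set was 15745 other GENCODE introns, taken from protein-coding transcripts only, that some transcript also keeps whole. Their values were 95.1% and 5.90, and the sets were thus chosen by unlike rules. A match of 5 bases or fewer was held by 42.6% of the listed introns and 33.8% of the others. The listed introns were also longer (median 396 against 272 bp), lower in GC content (median 52.2% against 56.0%) and lower in pyrimidines before the 3′ splice site (median 70.6% against 76.5%). These are descriptions of the letters, limited to introns that a GENCODE transcript retains.

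Raw counts summed over the listed introns ranged from 113064 to 149574 in the DMSO libraries and from 163665 to 214530 in the AGI24512 libraries. The sums cover only features that the authors listed, at an adjusted p of at most 0.05, and the sequencing depth is unknown. A normalised read count below is a raw count divided by the size factor of its library, and the size factors, recovered from the deposited base means, lay between 0.859 and 1.14. Among risen introns, the median log2 distance from the DMSO mean was 0.82 in AGI24512 library 1, 1.14 in library 2 and 1.28 in library 3, so library 1 moved least. Of 12 colon epithelium markers, only KRT8 had a listed intron, and no fibroblast or blood marker did. The tables list changed features only, so marker levels could not be measured. The MTAP feature (chromosome 9, 21809001 to 21813765, the 2nd of 6 introns) had reads in every MTAP-null library, 163 to 254 with AGI24512 and 87.4 to 101 with DMSO, and the removed stretch is not given, so the feature checks nothing about the genotype.

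AGI24512 raised most of the listed introns in MTAP-null cells, both in reads and in share of the gene's signal. In edgeR's quasi-likelihood test with Benjamini-Hochberg adjustment over all 1549 features, 82.2% passed at 0.05: 1202 rose (77.6%) and 72 fell (4.65%), while 275 did not pass. The median log2 change was 0.95, with quartiles of 0.57 and 1.37. All AGI24512 libraries lay above all DMSO libraries at 1175 introns (75.9%) and below them at 80 (5.16%). The authors chose these features on the same libraries, so the counts describe the list. Usage, the share of a gene's signal that falls in the intron, was higher with AGI24512 at 1449 features (93.5%) in the authors' deposited table. The scaling matters for the read counts. TMM scaling on the listed features moved the median from 0.95 to 0.11 and gave 251 rises (16.2%) and 253 falls (16.3%). All 251 rises were among the 1202, and all 72 falls were kept. TMM takes its factors here from the listed features alone and treats most of them as unchanged. As the features were chosen as changed, it pulls the bulk of the list towards no change by construction. A call lost or turned under TMM scaling therefore shows how an intron moved relative to the rest of the list.

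**Figure D1:**
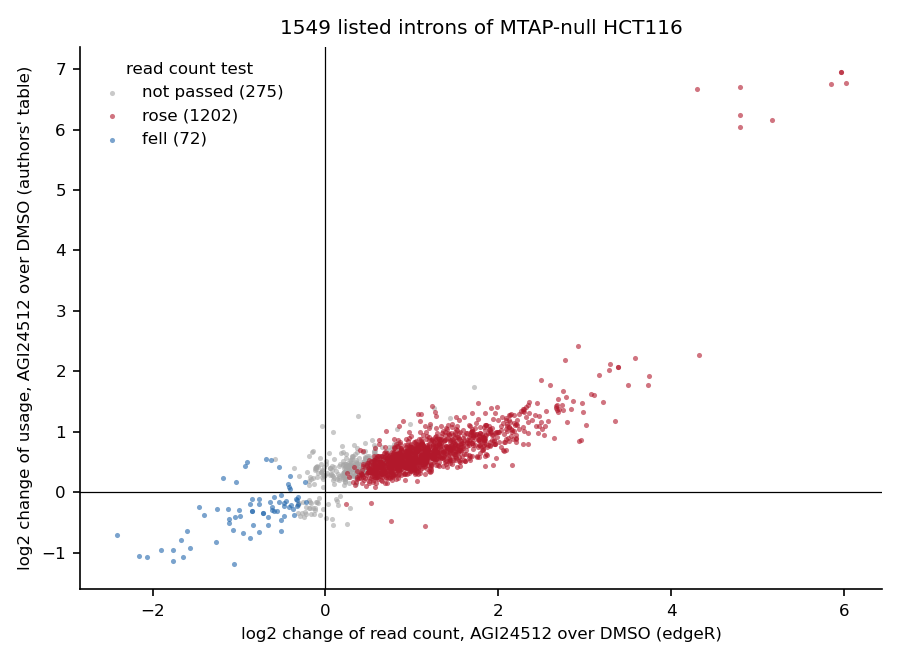
Each point is 1 of the 1549 listed introns of MTAP-null cells, with the edgeR log2 change of its read count on the x axis and the authors' log2 change of its usage on the y axis, both AGI24512 over DMSO. Most points lie at upper right. The 9 points at a usage change above 6 had no read in any DMSO library, so their positions depend on the fitting and give no size.

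Reads and usage went apart at few introns. Of the introns with higher usage, 1198 rose in read count, 239 did not pass and 12 fell. Of the 100 with lower usage in the authors' deposited table, 60 fell, 36 did not pass and 4 rose. One of those 4 was the last intron of MAT2A, the gene of the inhibited enzyme, with 231, 305 and 312 normalised counts with AGI24512 and 118, 139.9 and 122 with DMSO (log2 change 1.16, edgeR adjusted p = 6.9e-05), while the authors' deposited table had its usage at -0.55. With TMM scaling the MAT2A rise was 0.31 without a call, and 0 of the 100 introns with lower usage rose. NBPF1 showed the opposite pair, with fewer reads (log2 change -1.18) but usage in the authors' deposited table was 0.24 higher.

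The strongest rise among introns with a mean normalised count of at least 50 was in ARHGAP29, a GTPase-activating protein. Its feature of 14258 bp (chromosome 1, 94154649 to 94168906) had 582, 587 and 724 normalised counts with AGI24512 and 108, 102 and 90.8 with DMSO. The lowest AGI24512 library was far above the highest DMSO library, and the means were 631 ± 80.5 and 100.4 ± 8.89 (SD, n = 3), a 6.29-fold difference (log2 change 2.65, standard error 0.14, edgeR adjusted p = 2.7e-09). KRT7, a keratin of simple epithelia, had 297, 358 and 456 counts with AGI24512 and 92.6, 109.8 and 87.3 with DMSO in its 2nd intron (chromosome 12, 52235367 to 52237508). That is a 3.84-fold rise (edgeR adjusted p = 1.56e-06). SIN3B, a scaffold of histone deacetylase complexes, had the tightest libraries, at 315, 285 and 305 against 78.6, 80.6 and 82.6 in its intron 8 (chromosome 19, 16854262 to 16862351), 3.74-fold with edgeR adjusted p = 2.88e-07.

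The membrane repair protein gene MYOF rose 3.92-fold in intron 17, with 179.8, 277 and 366 counts against 60.3, 72.9 and 76.8. CAPN2, which encodes the large subunit of a calcium-activated protease, rose 3.87-fold, but its libraries spread widely, at 60.2, 153 and 168 against 25.3, 41.8 and 31.4. REEP3, which shapes the endoplasmic reticulum, rose 3.43-fold, and GLTSCR2, a nucleolar protein, 3.48-fold in a 183-bp feature overlapping an annotated exon. TRPM4, a cation channel, rose 4.92-fold and CPNE7, a copine, 4.57-fold. In all 10 of these largest rises, MBD1 included, the AGI24512 libraries lay above the DMSO libraries. All 10 also rose with TMM scaling, with log2 changes from 0.93 to 1.80.

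**Figure D2:**
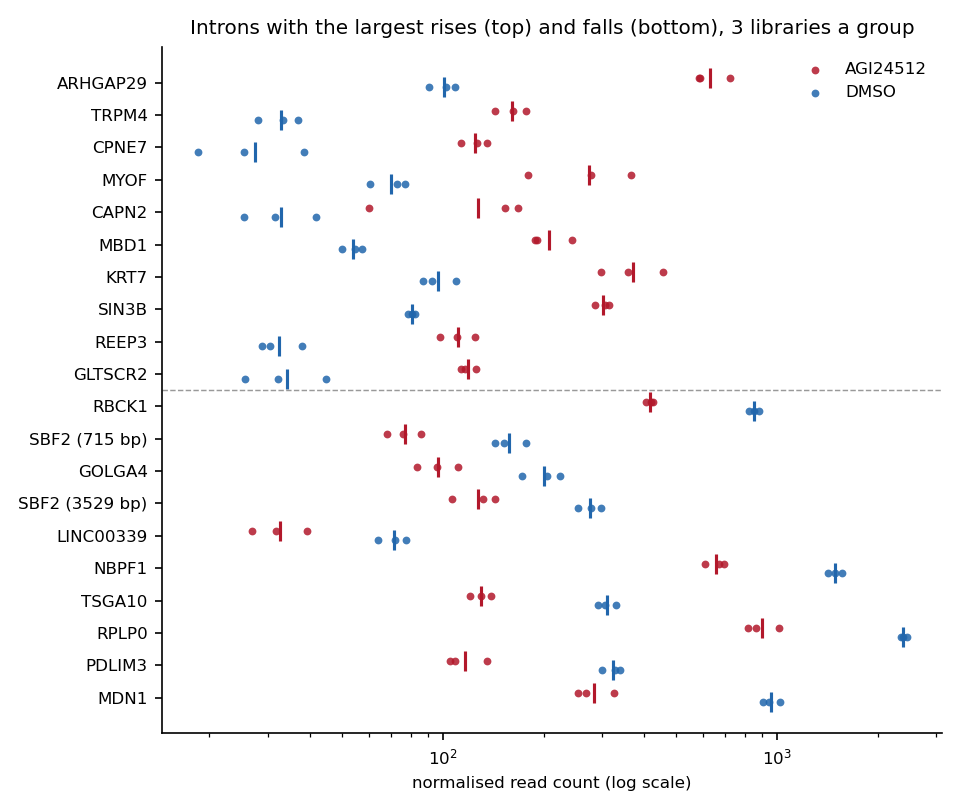
Normalised read counts on a log axis for the 10 introns with the largest rises and the 10 with the largest falls among called introns with a mean of at least 50. Points are libraries, 3 a group, and vertical ticks are means. The groups do not overlap in any of the 20 introns, for instance ARHGAP29 with 582 to 724 counts against 90.8 to 108.

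The falls were fewer and several were deep. MDN1, an AAA ATPase that remodels ribosome precursors, had 325, 268 and 254 counts with AGI24512 and 944, 910.3 and 1018 with DMSO (log2 change -1.76, edgeR adjusted p = 2.82e-08). PDLIM3, an actinin-binding protein of the actin cytoskeleton, had 105, 109 and 135 against 328, 299 and 339 in its 4th intron (chromosome 4, 185508563 to 185514269). Its log2 change was -1.47 with a standard error of 0.15 (edgeR adjusted p = 5.58e-06). RPLP0, a stalk protein of the large ribosomal subunit whose 5′ splice site is printed above, had 1011, 867 and 821 against 2374, 2354 and 2441 in an intron of 579 bp. Its log2 change was -1.41 with a standard error of 0.08 (edgeR adjusted p = 9.88e-09), and no AGI24512 library came near a DMSO library.

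TSGA10, a testis and centrosome protein gene, fell from 309 ± 19.1 to 129.9 ± 9.19 (SD, n = 3). RBCK1, a subunit of the linear ubiquitin ligase, fell from 853 ± 28.6 to 417 ± 10.2 in a feature that overlaps an annotated exon, while usage in the authors' deposited table was 0.17 higher. SBF2, a regulator of myotubularin phosphatases, fell in neighbouring introns 30 and 31, with log2 changes of -1.12 and -1.04. GOLGA4, a trans-Golgi tether, had a log2 change of -1.05. NBPF1 fell from 1492 ± 69.3 to 657 ± 42.6, but it belongs to a family of near-identical genes whose reads the counting could split, so this value is uncertain. The fall of the non-coding gene LINC00339 (log2 change -1.13) concerns a feature of 4 bp. All 10 of these introns kept their fall with TMM scaling.

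Of the 10 most abundant listed introns, 3 rose (HOXB6, CD44 and SMIM7), 4 fell (RPLP0, RPL10, RPS14 and DLGAP1) and 3 did not pass. SNRPD3, which encodes an Sm protein of the spliceosomal core and a substrate of PRMT5, had the highest mean count, with 3069, 3000.2 and 3078 counts with AGI24512 and 2848, 2599 and 2899 with DMSO. Usage of the SNRPD3 intron in the authors' deposited table was lower with AGI24512 (-0.14). In reads the AGI24512 libraries were higher, by 1.10-fold, but this did not pass (edgeR adjusted p = 0.0567). It passed without AGI24512 library 1 (adjusted p = 0.0474) and with the replicate block (0.0376), and with TMM scaling it passed as a fall (-0.71, adjusted p = 6.65e-05). HOXB6, a homeobox gene, had 2118, 2963 and 3377 against 1372, 1917 and 1575 (log2 change 0.80, edgeR adjusted p = 0.000285), which turned to -0.06 with TMM scaling. CD44, a hyaluronan receptor, rose 1.90-fold in the intron before one of its variable exons, from 1133 ± 41.3 to 2151 ± 519.8 (SD, n = 3; edgeR adjusted p = 6.34e-05), a call that was lost with TMM scaling (log2 change 0.06).

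Ribosomal protein introns RPL10 and RPS14 fell, with log2 changes of -0.42 and -0.45 and no overlap of libraries. The RPL10 intron of 90 bp, with its 8 of 9 consensus bases, had 1260.4, 1149 and 1082 counts against 1474, 1520.4 and 1683. DLGAP1, a postsynaptic scaffold gene, also fell (log2 change -0.41, edgeR adjusted p = 0.000947). These are falls in reads. Usage in the authors' deposited table was higher with AGI24512 for RPL10 (0.09) and DLGAP1 (0.05) and lower for RPS14 (-0.14). TOMM5, a subunit of the mitochondrial import pore, and MRPL19, a mitochondrial ribosomal protein, had log2 changes of 0.17 and -0.15, both short of the threshold (edgeR adjusted p = 0.0528 and 0.0774). TOMM5 passed without AGI24512 library 3 (adjusted p = 0.00523, log2 change 0.24), and MRPL19 without AGI24512 library 1 (adjusted p = 0.0193). SMIM7, a small membrane protein gene, had a log2 change of 0.25 with overlapping libraries (edgeR adjusted p = 0.0223), and its call was lost without AGI24512 library 2 or 3 or DMSO library 1 or 2 (adjusted p = 0.0681 to 0.0907). With TMM scaling TOMM5, SMIM7 and MRPL19 passed as falls (-0.66, -0.60 and -0.98).

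Change and abundance were related across the list. With the introns ranked by mean count and cut at the quartiles, 89.7% of the least abundant group rose with a median log2 change of 1.51, and the medians of the following groups were 1.04, 0.81 and 0.57. The most abundant group held 49 of the 72 falls. The authors' test needs a larger change to list a feature with few reads, and its part in this pattern was not tested. Of features of up to 200 bp, 65.4% rose and 13.4% fell, and of those over 1000 and up to 5000 bp, 82.4% and 2.93%, as a description without a test. Last introns of a transcript had a median of 0.80 and internal introns one of 0.98.

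At 9 introns, no DMSO library had a read, and these were singled out after their values were seen. Against 3 counts over the DMSO group, the AGI24512 means were at least 2.26-fold to 7.79-fold higher. UBE3B, a ubiquitin ligase, had 11, 6 and 6 reads with AGI24512 in its last intron, at least 7.60-fold. TPP2, a large cytosolic peptidase, had 6, 4 and 14 reads, at least 7.79-fold. CFI, a complement protease, had 1, 1 and 5 reads, at least 2.26-fold. No listed intron lacked reads in every AGI24512 library. Placing the 9 introns at their bounds left the median of all introns at 0.95.

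In 210 genes or gene groups, 2 or more introns were listed. All listed introns rose in 143 of them and all fell in 3, while 11 held at least 1 rise and 1 fall. MBD1, which binds methylated DNA, had 6 listed features between 50268051 and 50271468 on chromosome 18, and all 6 rose, with log2 changes from 1.09 to 2.21, the lowest without a call under TMM scaling. The one of 956 bp had 191, 188 and 243 counts with AGI24512 and 49.8, 57.3 and 54.7 with DMSO. The MBD1 features abut or nearly abut and all overlap annotated exons, so they are not independent measures. EIF4E, the cap-binding translation initiation factor, had 4 features within 98885062 to 98887078 on chromosome 4. All 4 rose, from 1.39 to 2.47, the lowest without a call under TMM scaling. The one of 532 bp, whose 5′ splice site has 5 matching bases, went from 17.6 ± 2.48 to 50.4 ± 5.36 counts (SD, n = 3), 2.87-fold (edgeR adjusted p = 0.000244).

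REV1, a DNA polymerase that bypasses lesions, rose at all 4 of its listed introns, numbers 17, 18, 19 and 21 of 22, with log2 changes of 1.02, 1.12, 1.16 and 0.94. With TMM scaling all 4 REV1 calls were lost (0.10 to 0.31). ATP11A, a phospholipid flippase, rose at 4 features within 112878304 to 112881812 on chromosome 13, from 0.95 to 1.43, of which 3 lost their calls with TMM scaling (0.10 to 0.29). The stretch-activated channel gene PIEZO1 had higher usage at all 4 introns in the authors' deposited table (0.38 to 0.59), but read counts overlapped between groups at each. Its log2 changes were 0.40, 0.81, 0.61 and 0.55, of which 3 passed. Each of these 3 calls was lost without AGI24512 library 3 (log2 changes 0.57, 0.48 and 0.27) and without DMSO library 1. The last 2 were also lost without AGI24512 library 2, the first and last without DMSO library 3, and the middle one without DMSO library 2. The PIEZO1 feature at 0.40 passed without AGI24512 library 1 (0.56, adjusted p = 0.00268). All 4 turned negative with TMM scaling, and the one at 0.40 passed as a fall (-0.45, adjusted p = 0.0445).

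SLC38A10, an amino acid transporter gene, and TM9SF1, an endosomal membrane protein gene, also had 4 features each. Usage in the authors' deposited table was 0.41 to 0.68 higher in SLC38A10 and 0.32 to 0.59 higher in TM9SF1. Their read counts gave 1 call among the 8 features, at the SLC38A10 intron on chromosome 17 from 81247062 to 81250069. It had 148, 179 and 192 counts against 135, 126 and 123.4 (log2 change 0.43, edgeR adjusted p = 0.0235). Leaving out AGI24512 library 2 or 3 or DMSO library 2 or 3 ended that call (adjusted p = 0.0664 to 0.0829), and with TMM scaling it passed as a fall (-0.42, adjusted p = 0.0401). The other 3 features of SLC38A10 lay between -0.12 and 0.00, and those of TM9SF1 between -0.09 and 0.46. With TMM scaling the other 3 SLC38A10 features passed as falls (-0.96 to -0.84), as did those of TM9SF1 other than the one at 0.46 (-0.93 to -0.88). The TM9SF1 feature at 0.46 passed without AGI24512 library 1 (adjusted p = 0.0401).

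The gene lists are read against the 77.6% of all listed introns that rose and the 4.65% that fell, with the median of 0.95. They were drawn by gene symbol, and the counts have no test of their own.

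**Figure D3:**
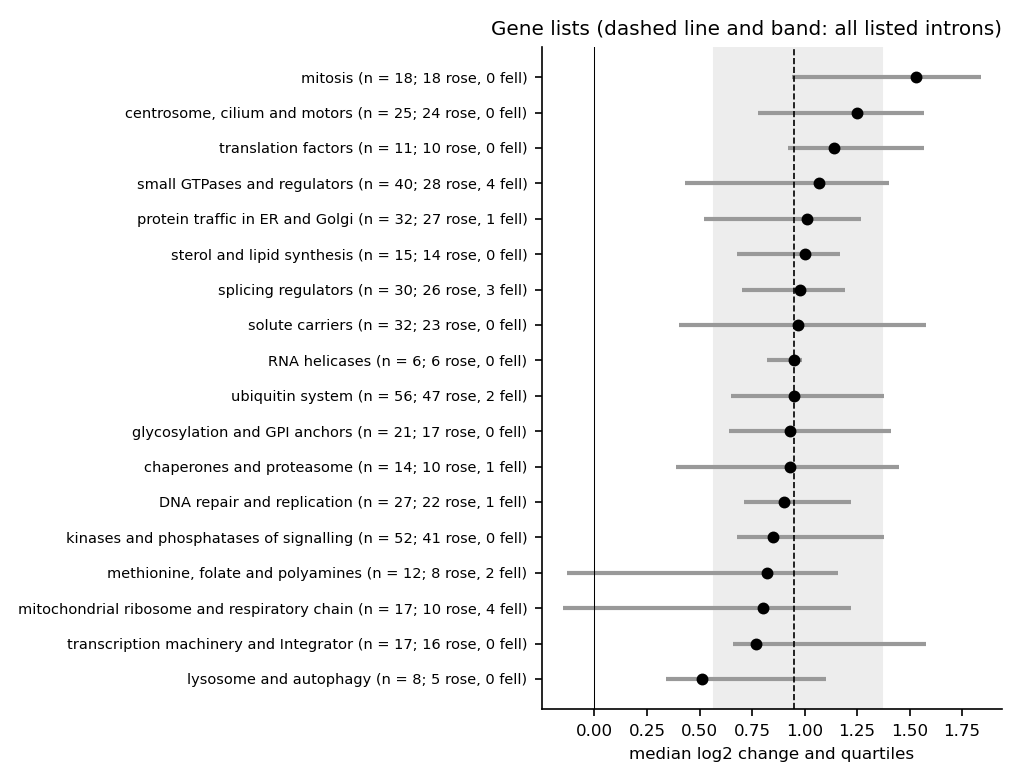
Median log2 change of the read count (points) and quartiles (bars) over the listed introns of each of 18 gene lists, with the number of introns, rises and falls. The dashed line and the band give the median of 0.95 and the quartiles of 0.57 and 1.37 over all 1549 introns. The mitosis list has the highest median, 1.53, and the lysosome and autophagy list the lowest, 0.51.

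Genes of mitosis rose at all 18 of their introns, with a median log2 change of 1.53, and 8 also rose with TMM scaling. This concerns reads. In usage, from the authors' deposited table, the median change of the list was 0.60, against 0.56 over all introns. CDK1, the kinase that drives mitotic entry, had 55.6, 79.4 and 111 counts with AGI24512 and 7.86, 11.7 and 12.8 with DMSO, 7.61-fold. NCAPH, a condensin subunit, had 28.7, 56.7 and 52.2 against 5.24, 11.7 and 6.98, 5.76-fold (edgeR adjusted p = 0.000109). MKI67, a coat protein of mitotic chromosomes and a proliferation marker, rose 3.27-fold and HAUS6, a subunit of the augmin complex that branches spindle microtubules, 3.01-fold. The median normalised count of the list was 27.1 against 44.1 over all introns, and low counts went with larger changes here. With a mean raw count of at least 20, the median of the mitosis list was 1.27, against 0.82 over all introns under that filter. The part of abundance in the difference from all introns was not tested.

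Genes of centrosome, cilium and motors rose at 24 of 25 introns (median 1.25), 5 of them also with TMM scaling. AHI1, a transition zone protein of the cilium, rose 5.44-fold with a wide spread, at 20.4, 32.9 and 74.5 against 5.24, 7.77 and 10.5. CEP89, a distal appendage protein of the centriole, had 298, 230.2 and 301 against 76.9, 116 and 104 in its first intron, 2.80-fold (edgeR adjusted p = 1.88e-05). IFT88, of intraflagellar transport, rose 2.47-fold but had no call under TMM scaling. With a mean raw count of at least 20, the median of the list was 0.81, against 0.82 over all introns under that filter.

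Small GTPases and their regulators rose at 28 of 40 introns and fell at 4, with a median of 1.07, and 6 rose and 6 fell with TMM scaling. Beside ARHGAP29, ARHGAP12 rose 3.68-fold, the Ras GTPase-activating gene RASA1 3.31-fold and the exchange factor gene ARHGEF16 2.93-fold, from 11.6 ± 3.02 to 34.1 ± 7.68 (SD, n = 3), and ARHGEF16 lost its call with TMM scaling. Signalling kinases and phosphatases rose at 41 of 52 introns and fell at 0 by edgeR, with a median of 0.85, and 10 rose and 5 fell with TMM scaling. MAPKBP1, a scaffold of the JNK pathway, had 245, 319.8 and 367 counts against 118, 111 and 134, 2.57-fold. PTK7, a receptor-like pseudokinase, had 76.0, 138 and 185 against 42.8, 49.5 and 43.1, 2.95-fold. AKT1S1, an mTORC1 inhibitor, rose 2.78-fold in a feature that overlaps an exon, and TNK2, a tyrosine kinase, 2.70-fold, which lost its call with TMM scaling.

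Protein traffic genes of the ER and Golgi rose at 27 of 32 introns and fell at 1 (median 1.01), against 4 rises and 6 falls with TMM scaling. AP1B1, a subunit of the clathrin adaptor of the trans-Golgi, had 221, 204 and 209.7 counts against 65.5, 69.0 and 53.5, 3.38-fold (edgeR adjusted p = 2.86e-06). SNX5, of the retromer pathway, had 233, 358 and 472 against 114, 167 and 129, 2.59-fold. ARFGAP1, which acts on Arf1, rose 2.40-fold, and the plasma membrane syntaxin gene STX4 2.37-fold in an intron of 136 bp. Both lost their calls with TMM scaling.

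Genes of glycosylation and GPI anchors rose at 17 of 21 introns and fell at 0 by edgeR (median 0.93), with 1 rise and 1 fall under TMM scaling. PIGT, of the GPI transamidase, rose 2.39-fold, PMM2, a phosphomannomutase, 2.23-fold, POMGNT1, which extends O-mannose glycans, 2.21-fold, and a GALNT18 feature 2.18-fold, and all 4 lost their calls with TMM scaling. Sterol and lipid genes rose at 14 of 15 (median 1.0), and 2 rose and 1 fell with TMM scaling. PTDSS2, a phosphatidylserine synthase, had 227, 211 and 291 counts against 114, 118 and 123.4, 2.06-fold. The oxysterol-binding protein genes OSBPL3 and OSBPL1A rose 2.79-fold and 2.71-fold. Of these names only OSBPL3 kept its call with TMM scaling.

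Solute carriers rose at 23 of 32 introns and fell at 0 by edgeR (median 0.97), and 8 rose and 11 fell with TMM scaling. SLC12A2, a sodium-potassium-chloride cotransporter, had 52.8, 71.4 and 90.4 counts against 15.7, 20.4 and 23.3, 3.61-fold. The glutamate transporter gene SLC1A3 rose 4.22-fold, the sodium-proton exchanger gene SLC9B2 2.90-fold and the taurine transporter gene SLC6A6 2.78-fold. With a mean raw count of at least 20, the median of the list was 0.49, against 0.82 over all introns under that filter.

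The ubiquitin system rose at 47 of 56 introns and fell at 2, with a median of 0.95 equal to that of all introns, and 9 rose and 7 fell with TMM scaling. RNF141 had 219.6, 328 and 393 counts against 121, 118 and 81.5, 2.94-fold. FBXO18, a helicase of an SCF ligase, rose 3.23-fold and UBXN4, of ER-associated degradation, 2.87-fold. USP54, a ubiquitin-specific protease family member, fell, with 11.1, 18.1 and 20.5 against 48.1, 61.2 and 41.9 (log2 change -1.61, edgeR adjusted p = 0.000343). Chaperone and proteasome genes rose at 10 of 14 and fell at 1 (median 0.93), and 3 rose and 3 fell with TMM scaling. The prefoldin subunit gene PFDN6 had 72.3, 61.2 and 67.1 counts against 17.5, 12.6 and 13.97 in its last intron, 4.55-fold (edgeR adjusted p = 1.29e-05). Another prefoldin gene, PFDN4, rose 3.11-fold. The proteasome genes PSMB4 and PSMD14 rose 2.84-fold and 2.46-fold, PSMB4 with a full consensus match at its 5′ splice site and PSMD14 without a call under TMM scaling.

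Lysosome and autophagy genes had 8 introns, of which 5 rose and 0 fell by edgeR (median 0.51), while with TMM scaling 0 rose and 1 fell. Only 3 rose without AGI24512 library 2, DMSO library 1 or DMSO library 3. WIPI1, of early autophagosome formation, had 21.3, 52.2 and 55.9 counts against 20.97, 22.3 and 17.5, 2.13-fold with overlapping libraries (edgeR adjusted p = 0.00962). LAMP1, a lysosomal membrane protein, rose 1.45-fold and GABARAP, an ATG8 protein, 1.40-fold. LAMP1 lost its call without AGI24512 library 2, DMSO library 1 or DMSO library 3 (adjusted p = 0.102 to 0.125), and GABARAP without DMSO library 1 or 3 (0.0593 and 0.0604). Without AGI24512 library 1 the GABARAP log2 change moved from 0.48 to 0.32. With TMM scaling LAMP1 and GABARAP turned to -0.31 and -0.33.

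Transcription machinery genes rose at 16 of 17 introns (median 0.77), and 4 rose and 1 fell with TMM scaling. CSTF3, a cleavage stimulation factor, had 47.3, 45.4 and 43.8 counts against 15.7, 10.7 and 15.1, 3.28-fold. POLR1A, the largest subunit of RNA polymerase I, rose 3.09-fold. The TFIIH genes GTF2H2 and GTF2H1 rose 3.09-fold and 3.01-fold, with GTF2H2 uncertain because the gene has near-identical copies and GTF2H1 without a call under TMM scaling. Splicing regulators rose at 26 of 30 and fell at 3 (median 0.98), and 2 rose and 3 fell with TMM scaling. MBNL1, a muscleblind protein, had 87.1, 152 and 176 counts against 32.3, 50.5 and 47.7, 3.18-fold. RBM26 rose 4.01-fold and RBM22, of the catalytic spliceosome, 2.84-fold, the latter without a call under TMM scaling. SRSF10 fell in a feature of 3 bp within an annotated exon (log2 change -1.66).

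All 6 introns of RNA helicase genes rose, with a median of 0.95 and 1 rise under TMM scaling. DDX3X had 100.1, 126 and 128 counts against 47.2, 63.1 and 68.7 in its 2nd intron, 1.98-fold. DDX17 rose 1.97-fold with libraries that overlapped, at 155, 305 and 390.5 against 107, 157 and 168. HELZ2 rose 1.92-fold, also with overlap, and lost its call without AGI24512 library 2 or 3 or DMSO library 1 (adjusted p = 0.0767 to 0.0888). SUPV3L1, a mitochondrial RNA helicase, had 86.2, 91.8 and 97.8 against 54.2, 52.5 and 53.5, 1.72-fold. With TMM scaling its log2 change was -0.06, and DDX3X, DDX17 and HELZ2 lost their calls. Translation factor genes rose at 10 of 11 features, 3 of the 4 named being from EIF4E, and LARP4B rose 2.23-fold but had no call under TMM scaling. DNA repair and replication genes rose at 22 of 27 and fell at 1 (median 0.90), against 2 rises and 2 falls with TMM scaling. XPC, the damage sensor of nucleotide excision repair, had 38.9, 68.0 and 77.3 counts against 21.8, 28.2 and 20.95, 2.60-fold. POLD1, the catalytic subunit of DNA polymerase delta, rose 2.60-fold, in close libraries of 25.02, 28.3 and 33.5 against 11.4, 11.7 and 10.5. GINS4, of the replicative helicase, rose 2.47-fold and FANCL, a ubiquitin ligase of crosslink repair, 2.23-fold. All 4 lost their calls with TMM scaling.

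The list of mitochondrial ribosome and respiratory chain was mixed, with 10 rises and 4 falls among 17 introns (58.8% and 23.5%, median 0.80), and 4 and 7 with TMM scaling. By its symbols this list also holds genes of mitochondrial protein import and RNA handling, TIMM17B, LRPPRC and FASTKD1 among them. LRPPRC, which stabilises mitochondrial mRNAs, had 47.3, 52.2 and 58.7 counts against 12.2, 14.6 and 9.31, 4.38-fold (edgeR adjusted p = 3.73e-05). MRPL4, of the large mitochondrial ribosomal subunit, had 44.5, 69.2 and 69.0 against 20.97, 11.7 and 16.3 in an intron of 86 bp, 3.73-fold. FASTKD1, of mitochondrial RNA handling, rose 3.08-fold. TIMM17B, an inner membrane translocase subunit, fell in a feature of 47 bp that overlaps an exon, at 10.2, 5.67 and 17.7 against 76.0, 49.5 and 58.2 (log2 change -2.41, edgeR adjusted p = 5.83e-05).

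Genes of methionine, folate and polyamine metabolism rose at 8 of 12 introns and fell at 2 (median 0.82), and 1 rose and 4 fell with TMM scaling. MTHFD2L, a mitochondrial folate enzyme, had 139, 141 and 121 counts against 56.8, 68.0 and 38.4, 2.46-fold. The intron of MTAP rose 2.25-fold, to 214 ± 46.4 from 94.9 ± 7.03 (SD, n = 3; edgeR adjusted p = 0.000159), and lost its call with TMM scaling, as did MTHFD2L. OAZ1, the antizyme that restrains polyamine synthesis, had 42.6, 48.8 and 64.3 against 13.1, 19.4 and 23.3, 2.79-fold.

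The rMATS tables compare set 1 with set 2, and no header says which treatment is which set, so directions are given by set. An inclusion level is the share of transcripts that include the exon, intron or longer exon form. All events listed had an FDR under 0.05 in the authors' deposited table. Skipped exons, 276 in number, were split evenly, with 134 higher in set 1 (48.6%). Retained introns were one-sided, with 44 of 51 higher in set 1 (86.3%). Alternative 3′ splice sites were higher in set 1 at 18 of 37, alternative 5′ splice sites at 36 of 56 and mutually exclusive exons at 24 of 39. The libraries of the sets did not overlap at 251 skipped exons (90.9%), 47 retained introns (92.2%), 30 alternative 3′ sites (81.1%), 49 alternative 5′ sites (87.5%) and 37 exclusive exons (94.9%). At least 20 reads in every library supported 312 of the 459 events.

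**Figure D4:**
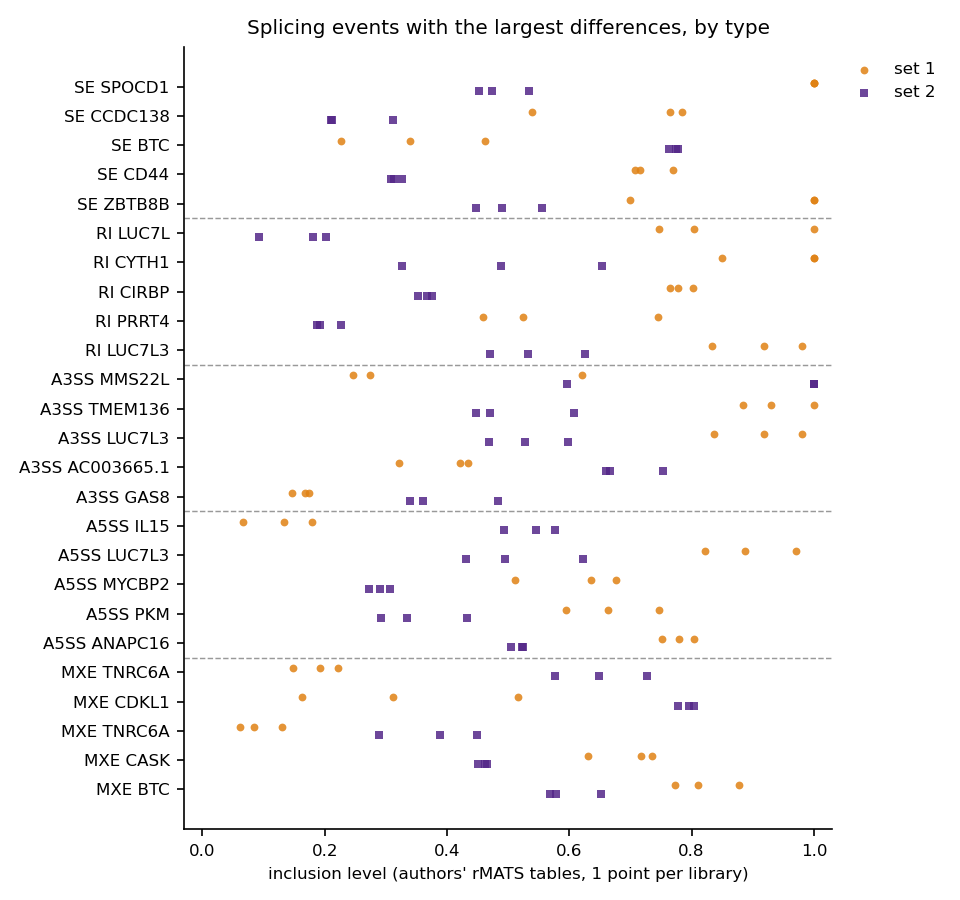
Inclusion levels of single libraries from the authors' rMATS tables for the 5 events of each type with the largest differences among those with at least 20 reads in every library. Circles are set 1 and squares set 2, with 3 libraries each. The sets are apart in all events but that of the alternative 3′ site of MMS22L, where 1 set 1 library at 0.621 lies above 1 set 2 library at 0.597.

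Exons that changed are printed for 4 events, chosen for large and separated levels. Each is the whole included exon read from a GENCODE 29 transcript (GRCh38), 5′ to 3′ on the transcribed strand.
CD44, chr11:35196746-35196874, plus strand: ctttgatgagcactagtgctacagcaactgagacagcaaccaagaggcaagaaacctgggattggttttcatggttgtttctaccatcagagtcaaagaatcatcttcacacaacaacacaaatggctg
BTC, chr4:74750573-74750719, minus strand: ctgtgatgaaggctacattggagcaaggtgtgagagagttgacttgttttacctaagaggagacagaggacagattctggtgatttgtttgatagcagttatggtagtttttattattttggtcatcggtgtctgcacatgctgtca
CCDC138, chr2:108788032-108788089, plus strand: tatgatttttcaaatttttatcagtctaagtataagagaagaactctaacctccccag
TNRC6A, chr16:24730253-24730300, plus strand: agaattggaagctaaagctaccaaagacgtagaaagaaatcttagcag

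The CD44 exon, of 129 bases, a multiple of 3, had inclusion levels of 0.716, 0.769 and 0.707 in set 1 and 0.326, 0.308 and 0.313 in set 2 in the authors' deposited table. It begins directly after the listed CD44 intron described above. The exon of BTC, a ligand of the EGF receptor family, is 147 bases long, also a multiple of 3, and went the other way, at 0.462, 0.339 and 0.226 in set 1 and 0.774, 0.778 and 0.763 in set 2. CCDC138, a coiled-coil protein, had an exon of 58 bases, not a multiple of 3, at 0.539, 0.765 and 0.784 against 0.211, 0.312 and 0.212. SPOCD1, which acts in piRNA-directed DNA methylation in mouse, had a skipped exon of 1422 bases at 1.0 in all set 1 libraries and at 0.453, 0.473 and 0.534 in set 2. ZBTB8B, a zinc-finger gene, had 1.0, 0.7 and 1.0 against 0.447, 0.556 and 0.49.

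In rMATS the level of exclusive exons refers to the first exon on the plus strand and to the second on the minus strand. TNRC6A, a GW182 protein of miRNA silencing, used its 48-base exon at 0.148, 0.192 and 0.222 in set 1 and 0.648, 0.577 and 0.727 in set 2. A second TNRC6A event shares this exon, and had 0.062, 0.13 and 0.085 against 0.388, 0.289 and 0.449. CDKL1, a kinase of the cilium, had 0.516, 0.163 and 0.312 against 0.778, 0.795 and 0.804, and CASK, a membrane scaffold, 0.735, 0.63 and 0.717 against 0.45, 0.466 and 0.462. The BTC pair, which contains the exon printed above, had 0.811, 0.773 and 0.878 against 0.579, 0.569 and 0.652 for its other exon.

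The retained intron with the largest difference was in LUC7L, a protein of the U1 snRNP. Its level was 1.0, 0.746 and 0.804 in set 1 and 0.181, 0.202 and 0.093 in set 2 (chromosome 16, 227337 to 228332). LUC7L3, another U1-linked gene, had a retained intron, an alternative 3′ site and an alternative 5′ site with nearly the same levels, for example 0.833, 0.919 and 0.98 against 0.626, 0.533 and 0.471 at the intron from 50750853 to 50752199 on chromosome 17. These LUC7L3 events overlap and share reads. A further retained intron of LUC7L3 had 0.919, 0.906 and 0.797 against 0.581, 0.675 and 0.554. CIRBP, a cold-inducible RNA-binding protein, had 0.765, 0.803 and 0.777 against 0.375, 0.368 and 0.353. CYTH1, an Arf exchange factor, had 1.0, 0.849 and 1.0 against 0.488, 0.327 and 0.654, and PRRT4 0.745, 0.459 and 0.524 against 0.226, 0.188 and 0.193.

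Among alternative splice sites, IL15, a cytokine, used its longer 5′ form at 0.18, 0.067 and 0.134 in set 1 and 0.493, 0.576 and 0.546 in set 2. PKM, the pyruvate kinase of glycolysis, had 0.664, 0.746 and 0.595 against 0.335, 0.432 and 0.292, MYCBP2, a ubiquitin ligase, 0.636, 0.676 and 0.511 against 0.29, 0.273 and 0.307, and ANAPC16, of the anaphase-promoting complex, 0.804, 0.752 and 0.779 against 0.505, 0.522 and 0.524. Of the 3′ sites, TMEM136 had 1.0, 0.93 and 0.884 against 0.448, 0.47 and 0.608, and GAS8, of the motile cilium, 0.146, 0.175 and 0.167 against 0.361, 0.34 and 0.483. AC003665.1 had 0.321, 0.434 and 0.422 against 0.754, 0.667 and 0.66. MMS22L, of replication fork repair, had 0.274, 0.621 and 0.246 against 0.597, 1.0 and 1.0, with overlap.

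Splicing regulators held 17 events in 10 genes, 11 higher in set 1. The following 2 are named as list members, after their values were seen. SRSF3, an SR protein, included a 456-base exon at 0.035, 0.044 and 0.052 in set 1 and 0.13, 0.138 and 0.119 in set 2, and HNRNPDL, an hnRNP, a 105-base exon at 0.176, 0.211 and 0.209 against 0.498, 0.451 and 0.423. Genes of the mitochondrial ribosome and respiratory chain held 9 events in 5 genes, 1 higher in set 1. The list of glycosylation and GPI anchors held none. That list was drawn by symbol and leaves out the glycosyltransferase genes B3GALNT2 and GYLTL1B, which had skipped-exon events. By event type, the share of listed events higher in set 1 ran from 48.6% of skipped exons to 86.3% of retained introns. The gene lists mix event types, so none of these shares is by itself the reference for a list count. The list counts have no test of their own, and events of the same gene are not independent.

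Some genes appeared in both the intron table and the rMATS tables. Both list changed features only, so the shares of genes below have no reference over all tested genes. Of 357 genes with an event, 52 also had a listed intron, which is 14.6% of the event genes and 4.23% of the 1230 genes with a listed intron of 1 symbol. The CD44 exon printed above is itself a listed feature of the intron table, with the same coordinates, and its reads rose from 765 ± 6.94 with DMSO to 1322 ± 67.5 with AGI24512 (SD, n = 3), without a call under TMM scaling. Among retained introns, coordinates were identical to a listed feature at 4, in DNAJC4, RAB24, ANO9 and RBM39. DNAJC4, a co-chaperone family member, had retained-intron levels of 0.509, 0.482 and 0.514 in set 1 and 0.291, 0.343 and 0.31 in set 2, and its reads rose from 92.2 ± 11.5 with DMSO to 131 ± 27.8 with AGI24512 (SD, n = 3; edgeR adjusted p = 0.0243). RAB24, a small GTPase, had levels of 0.151, 0.246 and 0.301 against 0.046, 0.014 and 0.059, and rose 2.18-fold. The intron of ANO9, an anoctamin, had 0.123, 0.144 and 0.283 against 0.021, 0.024 and 0.036. Its reads rose 4.97-fold, from 2.07 ± 1.29 to 10.3 ± 2.52 (SD, n = 3). The counts of RAB24 and ANO9 are low, so their folds are imprecise. RBM39, a splicing factor, had 0.337, 0.272 and 0.296 against 0.183, 0.174 and 0.041 and rose 1.76-fold. The DNAJC4 call was lost without AGI24512 library 1 (log2 change 0.32 in place of 0.51) or DMSO library 1 or 3, and the RAB24 call without AGI24512 library 3 or DMSO library 2. With TMM scaling DNAJC4 and RBM39 turned to -0.31 and -0.03, and RAB24 lost its call (0.32). All 4 introns were higher in set 1 and had higher usage with AGI24512, which describes the tables and does not assign the sets.

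Other genes with a retained-intron event had a listed intron elsewhere. C1orf159 rose 3.71-fold, SNHG7, a non-coding host of small nucleolar RNAs, 2.13-fold, and RBM39 1.86-fold and 1.80-fold at 2 other introns. With TMM scaling SNHG7 and both RBM39 introns lost their calls, the last turning to -0.01. LUC7L3 fell, with 9.27, 9.07 and 5.59 counts against 19.2, 15.5 and 15.1 (log2 change -1.07, edgeR adjusted p = 0.0121), but not without AGI24512 library 3 (adjusted p = 0.0625) or by DESeq2 (0.0518). MAP3K12, a kinase upstream of JNK, and CIRBP had log2 changes of 0.70 and 0.47 that passed only without AGI24512 library 1 (0.90 and 0.60) and turned to -0.15 and -0.38 with TMM scaling. The retained introns had levels of 0.929, 0.937 and 0.804 against 0.594, 0.594 and 0.665 in MAP3K12 and of 0.783, 0.831 and 0.837 against 0.697, 0.7 and 0.714 in SNHG7. A further CIRBP intron had 0.127, 0.212 and 0.235 against 0.052, 0.056 and 0.027, and a longer RBM39 one 0.316, 0.345 and 0.471 against 0.146, 0.216 and 0.127. The C1orf159 event had as few as 13 reads in a library.

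MTAP-WT cells had 258 listed introns, of which 92 had the same coordinates as one listed in MTAP-null cells. Over these 92 and all 12 libraries, edgeR's drug-by-genotype term was more positive in MTAP-null at 9 (9.78%) and more negative at 8 (8.7%). Introns that the authors listed in a single genotype could not enter. The 2 counts therefore do not describe how the genotypes differ over the whole lists. Counts are normalised within each genotype, and changes come from this joint model. ARHGAP29 rose in both, from 199 ± 34.6 to 470.2 ± 62.6 in MTAP-WT (SD, n = 3; log2 change 1.24), against 2.65 in MTAP-null, a difference of 1.40 (standard error 0.20, edgeR adjusted p = 3.45e-05). CPNE7 likewise differed by 1.48, with 2.22 against 0.74 (edgeR adjusted p = 0.00182). RPLP0 fell in both, by 1.41 and 0.50 on the log2 scale (edgeR adjusted p of the difference 5.31e-05).

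In the 12-library model, opposite directions passed at 4 introns, in KRT8, a keratin of simple epithelia, TMEM181, RPS14 and ASPH, a hydroxylase of the endoplasmic reticulum, the last of which was named after its values were seen. The first intron of KRT8 went from 165 ± 15.6 to 95.8 ± 19.9 counts in MTAP-null and from 132 ± 11.2 to 234 ± 6.46 in MTAP-WT (SD, n = 3). The changes were -0.77 and 0.83, and their difference was -1.59 (standard error 0.20, edgeR adjusted p = 1.39e-05). TMEM181, a multipass membrane protein gene, went from 248 ± 18.1 to 363 ± 68.2 in MTAP-null and from 695 ± 86.8 to 467 ± 33.2 in MTAP-WT, with changes of 0.55 and -0.58 (edgeR adjusted p of the difference 9.85e-05). RPS14 fell in MTAP-null (-0.45) and rose in MTAP-WT (0.32), from 1228 ± 105 to 1529 ± 139 counts (SD, n = 3; edgeR adjusted p of the difference 0.000229). This holds for reads only, as RPS14 usage in the authors' deposited tables was lower in both (-0.14 in MTAP-null, -0.2 in MTAP-WT). Usage did go opposite ways for KRT8 (-0.65 and 0.28), TMEM181 (0.35 and -0.23) and ASPH (0.18 and -0.21). ASPH had 0.23 and -0.29 (edgeR adjusted p of the difference 0.00637), but its MTAP-null change did not pass in the MTAP-null libraries alone (edgeR adjusted p = 0.0551) and was a fall with TMM scaling (-0.61). DMKN, a secreted epidermal protein gene, fell in MTAP-WT (-0.71), and its MTAP-null change of 0.09 missed the threshold (edgeR adjusted p = 0.449). TMCC1, an ER membrane protein gene, had 0.16 (adjusted p = 0.334) and -0.70, and a TM9SF1 feature had -0.09 (adjusted p = 0.627) and 0.78. Usage of that TM9SF1 feature was higher in both genotypes (0.32 and 0.49). Usage went opposite ways for TMCC1 (0.24 and -0.31) and DMKN (0.27 and -0.18). For TMEM181, TMCC1 and DMKN, the MTAP-null change turned negative with TMM scaling on the MTAP-null features, and TMCC1 and DMKN passed as falls.

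**Figure D5:**
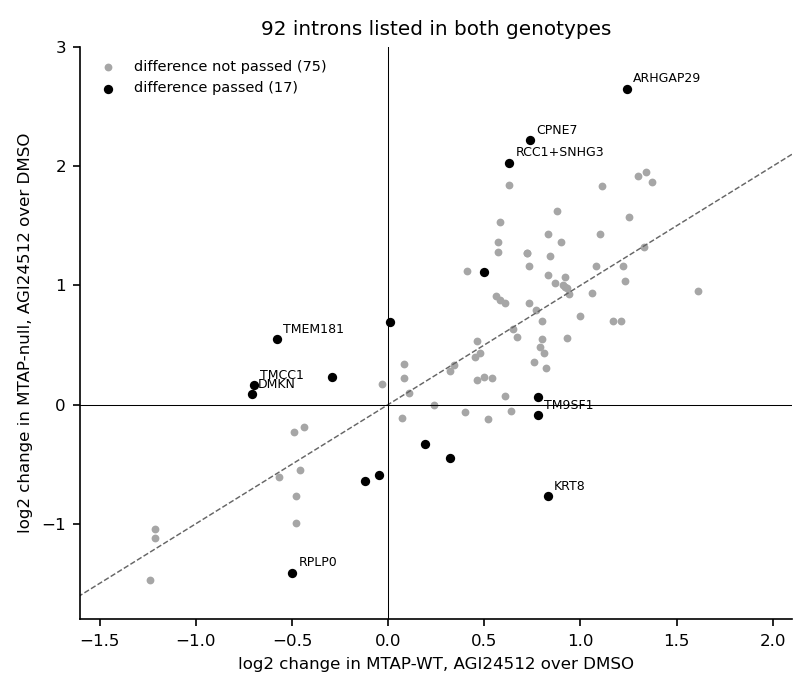
Log2 change of the read count, AGI24512 over DMSO, in MTAP-WT (x axis) and MTAP-null cells (y axis) for the 92 introns listed in both, from the joint edgeR model. Black points are the 17 introns whose difference passed, the dashed line marks equal changes, and names are given where the difference is at least 0.80. KRT8 and TMEM181 lie in opposite quadrants.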

How the data were processed

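Per the labels, poly-A RNA of 12 HCT116 libraries in 4 groups of 3 was sequenced. The deposited counts are raw whole-number reads per intron feature, per the file headers. The deposited signal is the base mean of counts divided by size factors, the score per treatment is DEXSeq's fitted usage, and the log2 usage change was turned here so that positive is higher with AGI24512. The authors' p-value and FDR columns, rMATS fraction columns (inclusion levels) and score of level differences were copied. Of the aligner, the strand setting and the build, the sources used here say nothing. Coordinates were compared with GENCODE 29 (GRCh38): 1068 of 1549 features are annotated introns, 620 overlap an exon of a transcript not classed as retained, and 77 with 2 gene symbols were kept out of lists and names. Counts in rMATS cells that had lost separators were rebuilt as splits that give back the deposited levels within 0.0006, which succeeded uniquely for 456 of 459 events.

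Counts were tested with edgeR 4.0.16 in R 4.3.3 (quasi-likelihood, size factors recovered from the deposited base means, adjusted p under 0.05), with treatment only. The step was tested on simulated data. Same-numbered libraries deviated together little (r over features 0.07, 0.04 and 0.01), against -0.07 to 0.05 for other pairs. Such small values cannot exclude that replicate numbers pair libraries, and the labels do not say. Alternatives were TMM and median-of-ratios scaling, DESeq2 1.42.0, a mean raw count of at least 20, a replicate block and leaving out each library. Splice-site letters were compared over 3 exon and 6 intron bases. Pyrimidines were counted in the last 20 intron bases, leaving out AG and the base directly before it.

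Names in the text are, per list, up to 4 called introns with the largest change and a mean normalised count of at least 20, the 10 most abundant, the 10 largest rises and falls with a mean of at least 50, genes with 4 or more features, the 8 largest drug-by-genotype terms, and per rMATS type the 5 largest differences with at least 20 reads in every library, and genes with both a listed intron and a retained-intron event. One intron that this rule names is not reported here. A few others are marked as chosen after their values were seen. Members and lists were chosen with earlier results of these data known, and the symbol patterns of the lists were corrected, to remove genes caught in error, after their values had been seen.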

Additional observations from a re-analysis of the deposited data

Results flagged for a closer look

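The effect of AGI24512 on read counts differed between the genotypes at 8 named introns, by edgeR's drug-by-genotype term over 12 libraries with adjustment over 92 introns. The log2 change in MTAP-null minus that in MTAP-WT was 1.48 for CPNE7, 1.40 for ARHGAP29, 1.13 for TMEM181, 0.86 for TMCC1 and 0.80 for DMKN. It was -1.59 for KRT8, -0.90 for RPLP0 and -0.87 for a TM9SF1 feature. The KRT8, RPLP0, TMEM181, TMCC1 and DMKN features overlap an exon of an annotated transcript.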

How the results depend on the processing

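Leaving out each library gave 1005 to 1281 rises and 62 to 71 falls. A mean raw count of at least 20 gave 874 and 63, with a median of 0.82. Scaling moved them more, with 251 rises and 253 falls under TMM and 229 and 265 under median-of-ratios scaling. Without overlap, TMM left 342 introns above and 316 below. An authors' adjusted p below 0.01 kept 855 features with higher and 63 with lower usage. For rMATS, an FDR below 0.01 kept, higher in set 1 and in set 2, 89 and 81 skipped exons, 32 and 1 retained introns, 7 and 12 alternative 3′ sites, 20 and 16 alternative 5′ sites, and 11 and 8 exclusive exons. A difference of at least 0.2 kept 86 and 88, 27 and 4, 13 and 10, 19 and 6, and 14 and 10. At least 20 reads kept 91 and 94, 35 and 4, 9 and 15, 26 and 16, and 13 and 9. These filters hold fewer events by construction.

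Read changes that turned sign under TMM and median-of-ratios scaling were LAMP1 (-0.31 and -0.34), GABARAP (-0.33 and -0.36), SNRPD3 (-0.71 and -0.73), HOXB6 (-0.06 and -0.10), TOMM5 (-0.66 and -0.69), SMIM7 (-0.60 and -0.63), TMEM181 (-0.31 and -0.34), TMCC1 (-0.69 and -0.72), DMKN (-0.73 and -0.76), DNAJC4 (-0.31 and -0.34), 2 RBM39 features (-0.03 and -0.07, -0.01 and -0.05), SUPV3L1 (-0.06 and -0.09), MAP3K12 (-0.15 and -0.18), CIRBP (-0.38 and -0.42), TM9SF1 (-0.38 and -0.42), 2 SLC38A10 features (-0.42 and -0.46, -0.84 and -0.88) and 4 PIEZO1 features (-0.45 and -0.49, -0.04 and -0.08, -0.25 and -0.29, -0.32 and -0.36). Both scalings take their factors from the listed features alone and treat most of them as unchanged, so they lower most changes by construction. Which scaling is right was not tested. Signs near 0 also turned when a library was left out, with ranges of -0.11 to 0.14 for 1 SLC38A10 feature, -0.30 to 0.01 for another, -0.19 to 0.11 for 1 TM9SF1 feature, -0.15 to 0.02 for another and -0.00 to 0.26 for TMCC1.

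With the replicate block, 1215 introns rose and 72 fell, 1197 and 71 of them shared, and SNRPD3 and TOMM5 passed (adjusted p = 0.0376 and 0.0340). The drug-by-genotype terms of the 8 named introns passed under every alternative run. DESeq2 called 1064 and 61, all among the edgeR calls, and did not call LAMP1, SMIM7, RAB24, LUC7L3 and 1 SLC38A10 feature. The sequencing depth is unknown.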
